A study of Mus musculus with 20 samples.

Results

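Described here are 10 genes known as transcriptional targets of the tumour suppressor p53: Cdkn1a, Mdm2, Gdf15, Plk2, Eda2r, Ccng1, Phlda3, Bbc3, Bax and Sesn2. They were picked by symbol from the 45706 genes of the count table, all 10 were found there, and all 10 passed the filter on low counts that 14023 genes passed. These genes and the other gene lists used below were chosen with earlier results of these data known. Their counts beside the shares of all genes are therefore descriptive. The cells were fibroblasts cultured from mouse embryos (MEFs), primary cells of C57BL/6 background. Cells of both genotypes lacked c-Rel, a subunit of the transcription factor NF-kB. The first genotype, labelled crel-/-, served as the control. The second, labelled crel-/-RelA-TA-KI and called the knock-in below, also carried an altered Rela, the gene of the NF-kB subunit RelA. The labels do not spell out TA. Cells went from 10% into 0.5% serum overnight and then received IL-1b (10 ng/ml), LPS (100 ng/ml) or TNF (10 ng/ml) for 0.5, 1 or 3 h, or nothing (0 h). The labels name no untreated library at 0.5, 1 or 3 h. In a comparison with 0 h, the agent, elapsed time and handling therefore cannot be told apart. Both cytokines and LPS, a bacterial cell wall component, activate NF-kB. Each of the 10 conditions in each genotype has 1 library, 20 in all, so each agent and time was compared over both genotypes, 2 libraries against the 2 at 0 h. The labels name no separate cultures, embryos or embryo age, and the p-values given here therefore reflect spread among single libraries, some of which may be technical. The main model adds genotype and condition, so a response that differs between the genotypes also counts as spread there.

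p53 is a DNA-binding protein that is kept scarce by the ubiquitin ligase MDM2 and accumulates after DNA damage and other stresses. It then switches on genes that halt the cell cycle, repair damage or kill the cell, and Mdm2 itself, which closes a negative feedback loop. Many of these genes have other inducers as well, among them growth factor and cytokine signalling through MAP kinases and the integrated stress response, so a rise in their RNA does not by itself report p53 activity. Among the 10 genes, Cdkn1a (p21, an inhibitor of cyclin-dependent kinases), Ccng1 (cyclin G1) and Plk2 (a polo-like kinase) belong to growth control. Mdm2 is the feedback inhibitor and Phlda3 a repressor of AKT signalling. Bbc3 (PUMA, a BH3-only protein), Bax (a pore former of the mitochondrial outer membrane) and Eda2r (a TNF receptor family member) belong to cell death. Sesn2 (sestrin 2) restrains mTORC1 in starved or stressed cells, and Gdf15 encodes a secreted stress cytokine.

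Promoter sequences show where known sites lie near these genes. RefSeq windows from 250 bases before to 50 after each annotated start (build GRCm38.p6) were found for all 10 genes, 14 windows in all, because some genes have several starts. They were searched on both strands by the p53 consensus, the kB consensus of NF-kB, the CRE letters TGACGTCA and the AP-1 letters TGANTCA. A full p53 site (2 half-sites with 0 or 1 base between them, the core letters kept and at most 2 mismatches elsewhere) was found in Cdkn1a, Ccng1 and Bax, against 0.682% of 32851 windows genome-wide. A single p53 half-site matched in 8.36% of windows and, beyond those 3 genes, in Mdm2. A kB match, present in 8.46% of windows, was found for Bbc3 only, and a CRE, present in 1.79%, for Plk2 only. None of the 14 windows held the AP-1 letters, which 7.81% of all windows hold. A match is a description of letters and not evidence of binding, and sites further away, such as introns, were not searched. The 5 stretches with a full p53 site, a CRE or a kB match are printed because they show which of the genes carry which known element beside the start. Each runs 5′ to 3′ on the gene's strand, ends before the start, and has the match in capitals.
Cdkn1a: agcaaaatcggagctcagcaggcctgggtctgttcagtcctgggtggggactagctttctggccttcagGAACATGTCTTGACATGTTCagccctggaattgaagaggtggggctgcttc
Ccng1: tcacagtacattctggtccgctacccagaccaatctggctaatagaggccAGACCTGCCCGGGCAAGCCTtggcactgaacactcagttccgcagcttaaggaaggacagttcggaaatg
Bax: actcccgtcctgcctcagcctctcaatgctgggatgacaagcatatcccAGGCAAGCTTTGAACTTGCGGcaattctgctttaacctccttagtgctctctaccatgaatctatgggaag
Plk2: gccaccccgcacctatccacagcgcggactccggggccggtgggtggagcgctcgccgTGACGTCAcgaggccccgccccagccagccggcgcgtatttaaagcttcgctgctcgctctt
Bbc3: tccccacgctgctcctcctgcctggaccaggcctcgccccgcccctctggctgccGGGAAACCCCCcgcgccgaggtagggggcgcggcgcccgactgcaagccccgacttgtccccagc
The Cdkn1a stretch lies at chr17:29090859-29090978, plus strand, just before the outermost start of the gene, with its p53 match 51 to 32 bases upstream and 1 mismatch. The Ccng1 stretch lies at chr11:40755412-40755531, minus strand, with the match 195 to 176 bases upstream and 1 mismatch. For Bax (chr7:45467029-45467148, minus strand), the match lies 201 to 181 bases upstream, has 1 base between its half-sites and 2 mismatches. In Plk2 (chr13:110394924-110395043, plus strand) the CRE lies 62 to 55 bases upstream, and in Bbc3 (chr7:16309391-16309510, plus strand) 2 overlapping kB matches span 137 to 127 bases upstream.

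Levels are given in CPM, counts scaled to a library's effective size (its total count times its TMM scaling factor). Compared per kilobase of exon, the median level over the 20 libraries was highest for Cdkn1a at 174 CPM per kb, followed by Ccng1 at 134, Bax at 96.7, Phlda3 at 91.6 and Plk2 at 78.3. Sesn2 (31.1 CPM per kb) and Mdm2 (24.1) were lower, then Bbc3 (14.6) and Eda2r (12.3), and Gdf15 was nearly silent at 0.734 CPM per kb. Each gene's range over the libraries overlapped that of the next in this order, except for Gdf15, whose highest value (2.74) lay below the lowest of Eda2r (7.64). Within the 20 libraries the highest level was 4.90 times the lowest for Eda2r, 3.60 times for Cdkn1a and 3.46 times for Plk2, but only 1.69 times for Ccng1 and 1.55 times for Bax.

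Libraries held 9248151 to 12574135 counts, where 3 counts, taken as the limit of detection, equal 0.239 to 0.324 CPM of the total count, without the scaling factor. The fibroblast label was checked against 12 markers, none of which was at 0 in any library, with Col1a1 between 18273 and 28815 CPM. All 15 macrophage markers were also detected in each library (summed 2848 to 5838 CPM, Lyz2 at 777 to 2160.3 CPM). Other lists were low but present in every library: neural and Schwann markers summed to 55.5 to 148 CPM with 0 to 1 of 13 at 0, cartilage to 58.6 to 147 CPM with 0 to 1 of 7 at 0, and endothelium to 20.9 to 89.0 CPM with 0 to 3 of 9 at 0. Skeletal muscle (8.93 to 30.2 CPM, 2 to 6 of 8 markers at 0) and epithelium (1.69 to 9.25 CPM, 1 to 4 of 8 at 0) were lower still. In such bulk RNA, fewer cells of a type and less RNA per cell cannot be told apart. Both LPS 3 h libraries stand apart, with scaling factors of 0.722 and 0.732 against 0.979 to 1.12 in the other 18. Whole-gene counts of Rel and Rela do not check the genotype labels, since the altered parts of the genes are not given.

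Most of the 10 genes rose after stimulation. Averaged over the 3 agents and both genotypes, 7 of the 10 passed the test as higher at 0.5 h, where 2.9% of all genes did (edgeR's quasi-likelihood test, Benjamini-Hochberg adjusted p under 0.05). At 1 h the count was again 7, against 7.12% of all genes, and at 3 h 7, against 25.5%. None of the 10 was lower at any of the 3 times (2.53%, 6.7% and 24.5% of all genes). With library totals in place of TMM scaling 2 were lower at 3 h, Ccng1 (-0.21, adjusted p = 0.044) and Sesn2 (-0.23, adjusted p = 0.0062). On that scale 7360 of 14023 genes were lower, and the median of all genes was -0.31. With TMM, Cdkn1a, Mdm2, Plk2, Phlda3 and Bax were called higher at each time, Gdf15 and Sesn2 at 0.5 h, Bbc3 and Eda2r at 1 and 3 h, and Ccng1 at none. The median log2 fold change of the 10 genes was 0.51 at 0.5 h, 0.62 at 1 h and 0.73 at 3 h, beside medians of 0.00 over all genes tested at each time. These counts rest on 2 libraries at 0 h: without the crel-/- 0 h library 1 of 10 was called at 0.5 h (Mdm2) and 2 at 1 h (Cdkn1a and Mdm2). A model with time but no agent term called 0 of the 10 at 0.5 h and 0 at 1 h. Its shares of all genes are not given here. At 3 h, leaving out any 1 of the 20 libraries left 6 or 7.

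By agent, all 10 genes rose with IL-1b at 0.5 h (5.75% of all genes were higher), 8 at 1 h (8.38%) and 7 at 3 h (16.9%). With LPS 6 rose at 0.5 h (3.56%), 9 at 1 h (7.58%) and 7 at 3 h (29.2%), and Sesn2 fell at 3 h (28.3% of all genes were lower). With TNF 1 rose at 0.5 h, which was Plk2 (0.314%), 3 at 1 h (2.25%) and 7 at 3 h (18.7%). All of these comparisons share the 2 libraries at 0 h. Without the crel-/- 0 h library the counts went to 5, 2 and 6 for IL-1b and to 0, 1 and 3 for TNF at 0.5, 1 and 3 h, and to 1 and 5 for LPS at 0.5 and 1 h, while the 7 of LPS at 3 h were called without it. The calls that held without any 1 of the 20 libraries were Cdkn1a, Mdm2, Plk2, Phlda3 and Sesn2 for IL-1b at 0.5 h, Cdkn1a at 1 h, and Cdkn1a, Phlda3, Bbc3, Bax and Sesn2 at 3 h. For LPS they were none at 0.5 h, Cdkn1a, Mdm2, Bbc3 and Bax at 1 h, and Cdkn1a, Mdm2, Eda2r, Phlda3, Bbc3, Bax and Sesn2 at 3 h, and for TNF none at 0.5 h, Mdm2 at 1 h, and Mdm2 and Plk2 at 3 h. The other calls of single agents against 0 h were each lost without at least 1 library. The TNF count at 0.5 h was 4 with DESeq2, where 140 of 14023 genes were higher. It was 0 with no filter on low counts, where 27 of 26128 genes were.

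**Figure D1:**
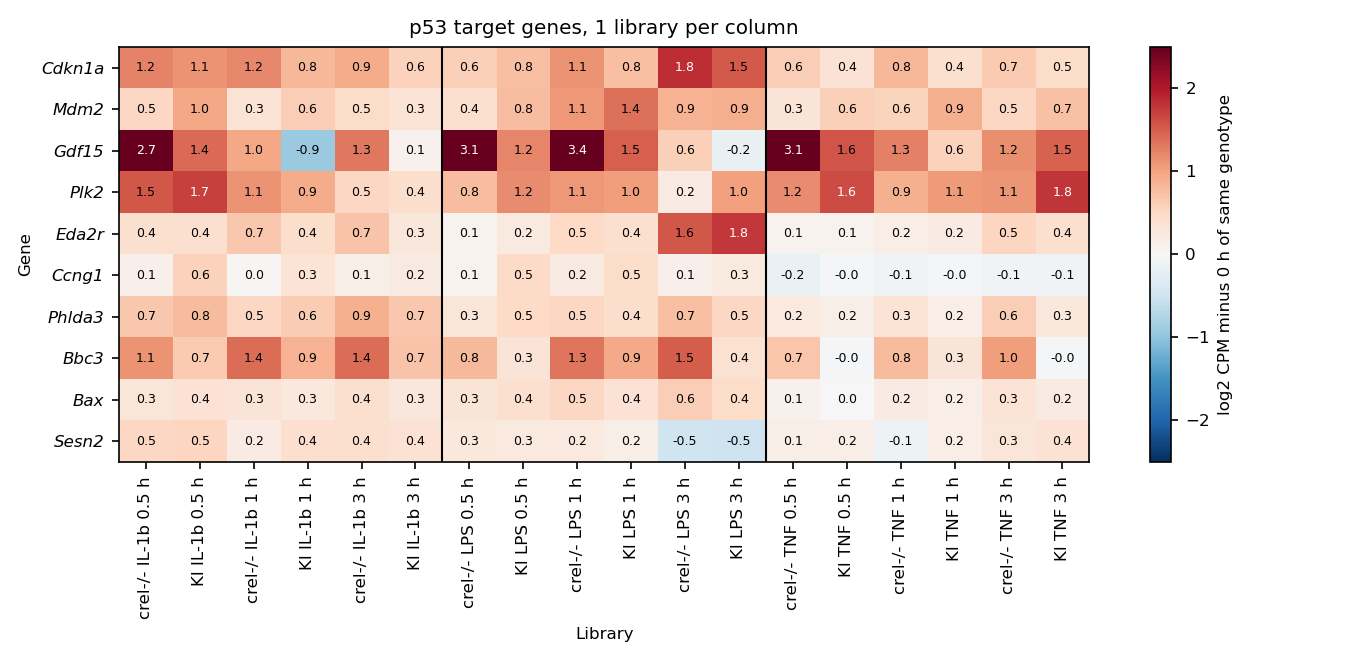
Log2 CPM (prior count 2) of the 10 genes in each of the 18 stimulated libraries minus the 0 h library of the same genotype, with colours saturating at 2.5 in either direction and the value printed in each cell; KI stands for the knock-in. Cdkn1a, Mdm2, Plk2, Phlda3, Eda2r and Bax are above 0 in all 18 libraries, Eda2r and Cdkn1a are highest after LPS for 3 h, and Sesn2 is below 0 there.

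Cdkn1a (chr17:29090979-29100722, plus strand, mm10) was higher than at 0 h at all 3 times. In crel-/- cells it lay at 214 CPM at 0 h, 509.6, 493 and 409.8 after 0.5, 1 and 3 h of IL-1b, 324, 464 and 772 after LPS and 327, 382 and 337 after TNF. In knock-in cells it lay at 233 CPM at 0 h, 507, 411 and 349 after 0.5, 1 and 3 h of IL-1b, 392, 393 and 676 after LPS and 300.5, 309 and 319 after TNF. All 18 stimulated libraries exceeded both libraries at 0 h, and the highest levels were those of LPS at 3 h. Averaged over agents, the log2 fold change was 0.78, SE 0.10, adjusted p = 0.0013 at 0.5 h (higher in 6 of 6 pairs), 0.85 at 1 h (adjusted p = 0.00028) and 1.00, SE 0.10, adjusted p = 1.1e-05 at 3 h. The 1 h and 3 h calls held without any 1 library, whereas the 0.5 h call did not pass without the crel-/- 0 h library (0.66, adjusted p = 0.057). With IL-1b its highest level came at 0.5 h, with a log2 fold change of 1.18 (adjusted p = 0.00011), and levels at 3 h differed from those at 0.5 h by -0.43 on the log2 scale (adjusted p = 0.021). Under LPS they were 1.01 higher at 3 h than at 0.5 h (adjusted p = 1.1e-05), reaching 1.69, SE 0.12, adjusted p = 1.0e-07 against 0 h. TNF gave 0.62 (adjusted p = 0.011) at 1 h and 0.55 (adjusted p = 0.0034) at 3 h.

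Plk2 (chr13:110395044-110400844, plus strand), the polo-like kinase gene, rose at 0.5 h under each agent and was the 1 gene of the 10 that passed under TNF at all 3 times. In crel-/- cells Plk2 lay at 114 CPM at 0 h, 333, 249 and 163 after 0.5, 1 and 3 h of IL-1b, 196, 244 and 133 after LPS and 259, 211 and 244 after TNF. The knock-in levels of Plk2 were 106 CPM at 0 h, 345, 199.9 and 143 after 0.5, 1 and 3 h of IL-1b, 241, 218 and 215 after LPS and 328, 221 and 365 after TNF. All 18 stimulated libraries were above both at 0 h, the IL-1b libraries at 1 and 3 h were below that at 0.5 h in both genotypes, and TNF for 3 h gave the highest knock-in library and the highest of the 3 crel-/- libraries at 3 h. Its log2 fold change at 0.5 h was 1.34, SE 0.20, adjusted p = 0.0038, and it was the only member that passed under TNF at that time (1.41, SE 0.22, adjusted p = 0.033). At 3 h TNF gave 1.46, SE 0.23, adjusted p = 0.00091, a call that held without any 1 library. The TNF calls at 0.5 and 1 h were each lost without any of several single libraries, some of them of other agents. Over the fits without 1 library, their log2 fold changes ran from 1.27 to 1.54 and from 0.84 to 1.11. Under IL-1b the level fell between 0.5 and 3 h by 1.14 (adjusted p = 0.0060, also held without any 1 library). The 3 h average over agents (0.86, adjusted p = 0.0035) did not pass without the knock-in 0 h library (0.72, adjusted p = 0.053), nor did the 0.5 h average without either 0 h library (1.47, adjusted p = 0.061 without crel-/- 0 h, and 1.20, adjusted p = 0.062 without knock-in 0 h).

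Ccng1 (chr11:40748552-40755311, minus strand) changed little. Over the crel-/- libraries Ccng1 ran from 389.7 to 507 CPM with 437 at 0 h, and over the knock-in libraries from 419 to 659 CPM with 444 at 0 h. In each genotype, every TNF library lay below the 0 h library and every IL-1b and LPS library above it. Averaged over agents, its log2 fold changes of 0.18 (adjusted p = 0.26), 0.15 (adjusted p = 0.25) and 0.10 (adjusted p = 0.36) at 0.5, 1 and 3 h did not pass. It passed with IL-1b at 0.5 h (0.35, adjusted p = 0.040) and with LPS at 1 h (0.34, adjusted p = 0.040). The first call was lost without 9 and the second without 6 of the 20 libraries left out singly, both 0 h libraries among them (log2 fold changes 0.20 to 0.49 and 0.24 to 0.44).

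Mdm2 (chr10:117688888-117710758, minus strand), the feedback inhibitor of p53, rose at all 3 times and was highest after 1 h of LPS. The crel-/- levels of Mdm2 were 81.7 CPM at 0 h, 117, 104 and 112 after 0.5, 1 and 3 h of IL-1b, 108, 174 and 148 after LPS and 102, 121 and 116 after TNF. The knock-in levels were 81.9 CPM at 0 h, 159.9, 126 and 104 after 0.5, 1 and 3 h of IL-1b, 139.5, 212 and 154 after LPS and 124, 152 and 136 after TNF. All 18 stimulated libraries exceeded both at 0 h, which themselves differed by less than 1 CPM, and the LPS 1 h library was the highest in each genotype. The log2 fold change averaged over agents was 0.60 (adjusted p = 0.0033) at 0.5 h, 0.81, SE 0.09, adjusted p = 0.00024 at 1 h and 0.64 (adjusted p = 0.00013) at 3 h. LPS for 1 h gave 1.23, SE 0.11, adjusted p = 2.3e-05. The 1 h and 3 h averages held without any 1 library, while the 0.5 h average did not pass without the knock-in 0 h library (0.48, adjusted p = 0.074).

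Phlda3 (chr1:135766119-135769136, plus strand), the AKT repressor, was higher in all 18 stimulated libraries than in both 0 h libraries, which held 97.4 and 108 CPM. Its stimulated levels ran from 115 CPM (crel-/-, TNF 0.5 h) to 186 CPM (knock-in, IL-1b 0.5 h). IL-1b libraries were the highest at 0.5 h in each genotype and TNF libraries the lowest. The log2 fold change averaged over agents was 0.45 (adjusted p = 0.015) at 0.5 h, 0.44 (adjusted p = 0.0085) at 1 h and 0.62, SE 0.10, adjusted p = 0.00018 at 3 h, the last of which held without any 1 library.

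**Figure D2:**
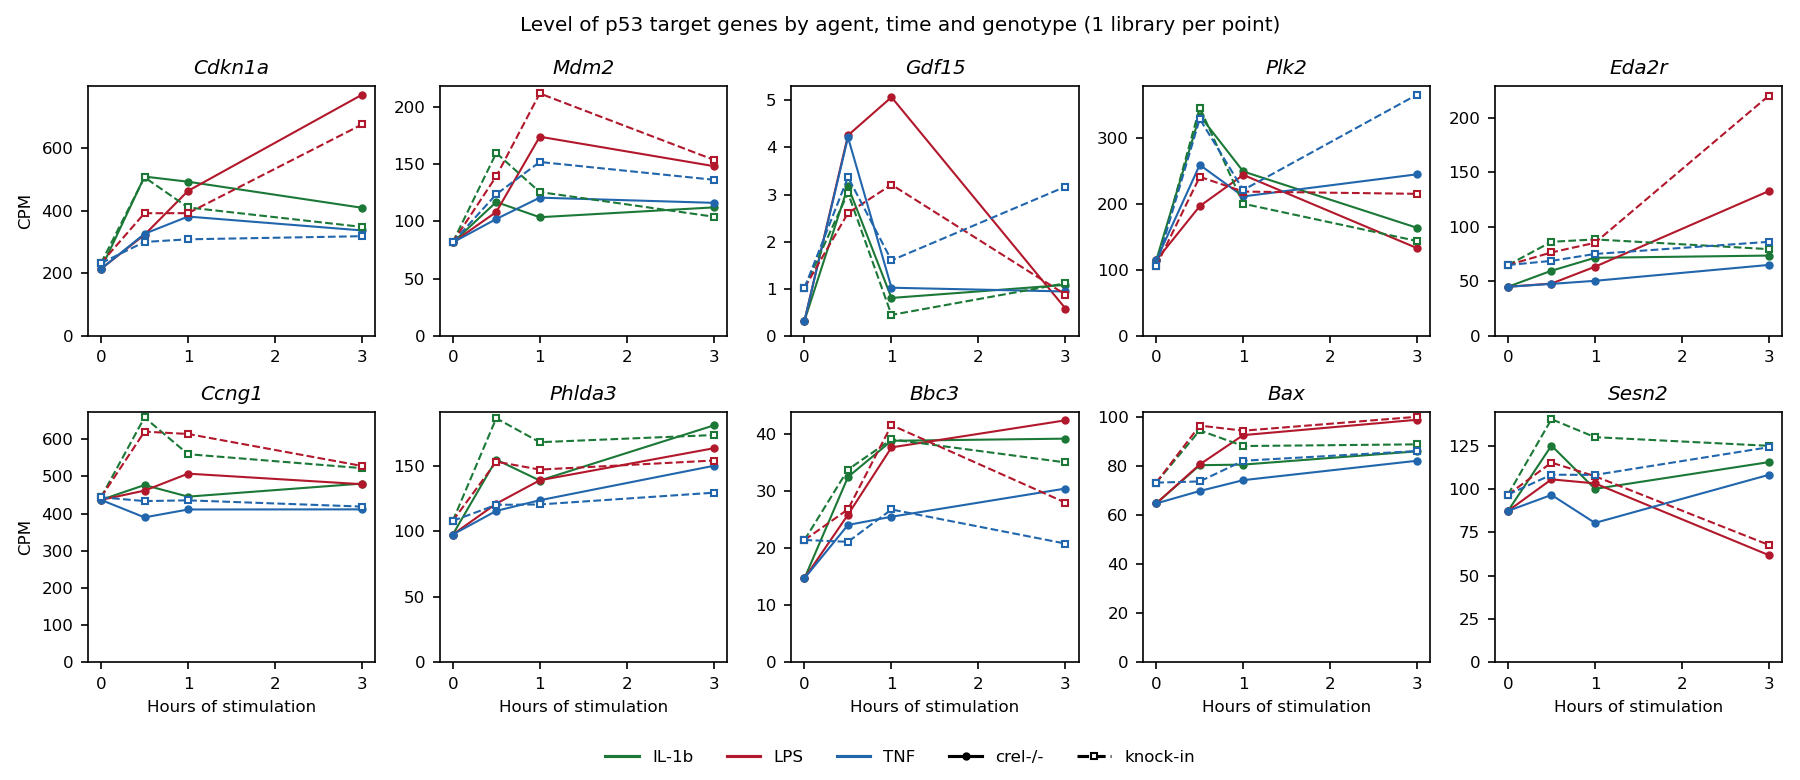
CPM of each of the 10 genes against hours of stimulation, 1 panel per gene with the y axis from 0, in green for IL-1b, red for LPS and blue for TNF; filled circles with solid lines are crel-/- and open squares with dashed lines the knock-in, and each point is 1 library. Cdkn1a and Eda2r climb under LPS up to 3 h, Plk2 falls from 0.5 h under IL-1b, Mdm2 peaks at 1 h under LPS, and Sesn2 falls under LPS.

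Of the death genes, Eda2r (chrX:97333840-97377216, minus strand) rose most after 3 h of LPS. In crel-/- cells Eda2r lay at 45.0 CPM at 0 h, 59.7, 71.5 and 73.6 after 0.5, 1 and 3 h of IL-1b, 47.9, 63.3 and 133 after LPS and 47.6, 50.4 and 65.0 after TNF. In knock-in cells Eda2r lay at 64.9 CPM at 0 h, 86.2, 88.4 and 79.5 after 0.5, 1 and 3 h of IL-1b, 76.5, 85.3 and 220.2 after LPS and 68.7, 75.0 and 86.2 after TNF. Each of the 18 stimulated libraries was above the 0 h library of its own genotype, and the LPS 3 h library was well above all others in both. Averaged over agents, 0.5 h did not pass (0.22, adjusted p = 0.22), and the log2 fold change was 0.40 (adjusted p = 0.015) at 1 h and 0.88, SE 0.10, adjusted p = 1.8e-05 at 3 h. LPS for 3 h gave 1.67, SE 0.12, adjusted p = 6.7e-08, a 3.18-fold rise, and between 0.5 and 3 h of LPS the rise was 1.50 (adjusted p = 2.1e-07). IL-1b gave 0.41 (adjusted p = 0.038) at 0.5 h, 0.56 (adjusted p = 0.0058) at 1 h and 0.51 (adjusted p = 0.0059) at 3 h, and TNF 0.47 (adjusted p = 0.0077) at 3 h. Between 0.5 and 3 h of IL-1b the difference was 0.10 (adjusted p = 0.58). The LPS 3 h call and the 3 h average held without any 1 library.

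Bbc3 (chr7:16309616-16318205, plus strand), the BH3-only gene, passed at 1 and 3 h. In crel-/- cells Bbc3 lay at 14.8 CPM at 0 h, 32.5, 38.9 and 39.2 after 0.5, 1 and 3 h of IL-1b, 25.9, 37.7 and 42.5 after LPS and 24.1, 25.5 and 30.5 after TNF. The knock-in levels of Bbc3 were 21.5 CPM at 0 h, 33.8, 39.1 and 35.1 after 0.5, 1 and 3 h of IL-1b, 26.8, 41.6 and 28.0 after LPS and 21.1, 26.8 and 20.8 after TNF. Every stimulated crel-/- library lay above crel-/- at 0 h, whereas in the knock-in the TNF libraries at 0.5 and 3 h lay slightly below 0 h. The log2 fold change averaged over agents was 0.58 (adjusted p = 0.079) at 0.5 h, 0.92 (adjusted p = 0.0047) at 1 h and 0.83, SE 0.18, adjusted p = 0.0020 at 3 h. Without the crel-/- 0 h library, the lowest of the 20 for this gene, the 3 h value was 0.51, adjusted p = 0.065. LPS gave 1.13 (adjusted p = 0.0032) at 1 h and 0.95 (adjusted p = 0.0019) at 3 h, and IL-1b 1.03 (adjusted p = 0.0031) at 3 h.

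Bax (chr7:45461695-45466898, minus strand) rose by small amounts at each time. Its level at 0 h was 64.7 CPM in crel-/- and 73.2 CPM in knock-in cells. Stimulated levels ran from 69.8 to 98.8 CPM in crel-/- and from 73.7 to 100.1 CPM in the knock-in, each above its own 0 h. TNF for 0.5 h was the lowest and LPS for 3 h the highest in both genotypes. The log2 fold change averaged over agents was 0.25 (adjusted p = 0.022) at 0.5 h, 0.30 (adjusted p = 0.0040) at 1 h and 0.39, SE 0.06, adjusted p = 0.00015 at 3 h. The 3 h call held without any 1 library, while the 0.5 h call did not pass without the crel-/- 0 h library (0.22, adjusted p = 0.30).

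Sesn2 (chr4:132492032-132510501, minus strand), the mTORC1 inhibitor, was the only one of the 10 genes that passed as lower than at 0 h, which it did after 3 h of LPS. In crel-/- cells Sesn2 lay at 87.5 CPM at 0 h, 125, 100.2 and 116 after 0.5, 1 and 3 h of IL-1b, 106, 103 and 61.9 after LPS and 96.7, 80.5 and 108 after TNF. The knock-in levels of Sesn2 were 96.9 CPM at 0 h, 140.5, 130.1 and 125 after 0.5, 1 and 3 h of IL-1b, 115, 108 and 67.8 after LPS and 108, 108 and 124 after TNF. The LPS 3 h library was the lowest in each genotype and below 0 h, and IL-1b for 0.5 h the highest. With IL-1b Sesn2 was higher than at 0 h at each time, most at 0.5 h (0.53, adjusted p = 0.0013). After 3 h of LPS the log2 fold change was -0.51, SE 0.08, adjusted p = 0.00017. From 0.5 to 3 h of LPS it fell by 0.77 on the log2 scale (adjusted p = 5.2e-06). After 3 h of TNF it was 0.33 higher than at 0 h (adjusted p = 0.0075). Averaged over the 3 agents, 3 h was 0.07 (adjusted p = 0.41). The fall under LPS held without any 1 library and under each scaling.

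Gdf15 (chr8:70629393-70632456, minus strand) was the rarest transcript and its numbers are small. At 0 h it had 4 counts (0.322 CPM, 0.0879 to 0.826) in crel-/- and 12 counts (1.02 CPM, 0.526 to 1.78) in the knock-in, where the ranges are exact 95% Poisson intervals and cover counting error only. After 0.5 h the crel-/- libraries held 32 counts with IL-1b, 47 with LPS and 57 with TNF, and the knock-in libraries 34, 27 and 40. The 6 libraries at 0.5 h and the 2 of LPS at 1 h had more CPM (2.61 to 5.07) than both at 0 h (0.322 and 1.02). Over both genotypes, the ratio of CPM to 0 h (summed counts, 95% interval for counting error only, without spread between libraries) was 4.69 (2.68 to 8.67) with IL-1b, 5.23 (3.02 to 9.62) with LPS and 5.78 (3.38 to 10.5) with TNF at 0.5 h. At 1 h it was 6.32 (3.67 to 11.6) with LPS and 2.01 (1.06 to 3.94) with TNF but 0.958 (0.441 to 2.07) with IL-1b. At 3 h it was 3.01 (1.67 to 5.72) with TNF, 1.66 (0.854 to 3.34) with IL-1b and 1.12 (0.469 to 2.56) with LPS. The TNF ratio at 3 h came mostly from the knock-in library (33 counts, 3.17 CPM, against 11 counts and 0.942 CPM in crel-/-). The fitted log2 fold change there was 1.58 (adjusted p = 0.059), and 0.40 without that library. In the fit, the log2 fold change at 0.5 h was 2.36, SE 0.49, adjusted p = 0.014, and it did not pass without the crel-/- 0 h library (1.71, adjusted p = 0.26). The averages at 1 h (1.18, adjusted p = 0.18) and 3 h (0.82, adjusted p = 0.26) did not pass.

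At 3 h several of the genes differed between agents. LPS against TNF had Cdkn1a higher by a log2 difference of 1.14, SE 0.12, adjusted p = 4.2e-06, Eda2r by 1.20 (adjusted p = 1.7e-06), Ccng1 by 0.27 (adjusted p = 0.038) and Bax by 0.24 (adjusted p = 0.011), which makes 4 of 10 higher where 24.3% of all genes were. Plk2 (-0.81, SE 0.22, adjusted p = 0.011) and Sesn2 (-0.84, adjusted p = 2.6e-06) were lower under LPS, 2 of 10 against 24% of all genes. LPS against IL-1b gave the same order for Cdkn1a (0.93, adjusted p = 2.4e-05), Eda2r (1.16, adjusted p = 2.4e-06) and Sesn2 (-0.89, adjusted p = 1.6e-06), and Mdm2 was also higher (0.48, adjusted p = 0.0030), as was Bax (0.19, adjusted p = 0.042), with 23.8% of all genes higher and 23.4% lower. Both comparisons use the same 2 LPS libraries. Between IL-1b and TNF only Plk2 differed, lower under IL-1b by 0.97 (adjusted p = 0.014; 7.93% of all genes were lower, 7.89% higher). The differences of Cdkn1a, Eda2r and Sesn2 between LPS and each of the others held without any 1 library, and the other calls in these comparisons were each lost without at least 1. That of Plk2 between LPS and TNF did not pass without crel-/- LPS 3 h (-0.51, adjusted p = 0.12) or knock-in TNF 3 h (-0.54, adjusted p = 0.12), and that between IL-1b and TNF did not without knock-in IL-1b 3 h (-0.81, adjusted p = 0.11) or knock-in TNF 3 h (-0.71, adjusted p = 0.12). The sum of the macrophage markers was 3095 to 4549 CPM in the LPS 3 h libraries, 3127 to 3811 with IL-1b and 5652 to 5838 with TNF, that of the neural and Schwann markers 55.5 to 65.4, 64.6 to 91.4 and 142 to 148 CPM. In the same order, the fibroblast sum was 86296 to 88049, 65671 to 66205 and 66414 to 76753 CPM, the endothelial sum 71.5 to 89.0, 20.9 to 30.9 and 26.1 to 37.7 CPM, and the cartilage sum 118 to 147, 63.8 to 91.7 and 76.4 to 98.7 CPM, each highest with LPS. The part of these markers in the differences was not tested.

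The directions under LPS at 3 h depend in part on scaling. With library totals in place of TMM, the median of all genes lay 0.62 lower after 3 h of LPS than at 0 h on the log2 scale. On that scale Cdkn1a (1.09), Eda2r (1.07) and Mdm2 (0.28) were still called higher than at 0 h, 3 genes in place of 7. Plk2 (0.04), Phlda3 (0.03) and Bbc3 (0.34) no longer passed. Of all genes, 1706 were then higher and 9110 lower, in place of 4099 and 3962. Sesn2 was at -1.11 and called lower, and Ccng1 (-0.42) and Bax (-0.07) came out below 0 h, the former called. Between LPS and TNF at 3 h, Ccng1 and Bax changed from higher under TMM to -0.19 and -0.22. The rises of Cdkn1a and Eda2r and the fall of Sesn2 kept their direction under TMM, DESeq2's size factors, RLE and library totals.

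**Figure D3:**
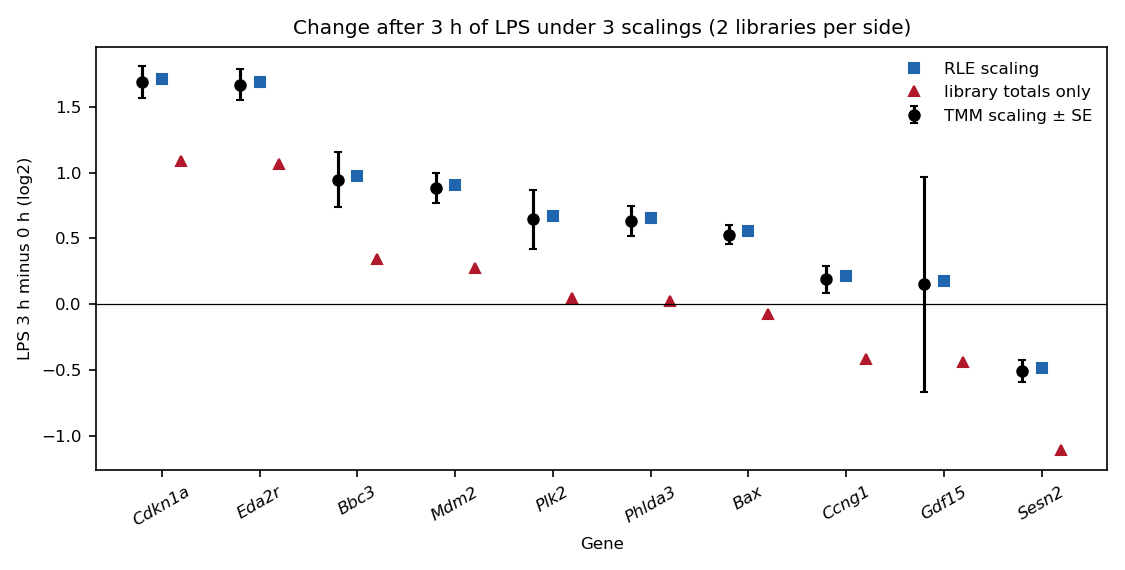
Log2 fold change of each of the 10 genes at LPS 3 h against 0 h, over both genotypes, under TMM scaling (with SE bars), RLE scaling and library totals without a scaling factor. Cdkn1a and Eda2r lie above 0 and Sesn2 below 0 under all 3, while Ccng1 and Bax change sign under library totals.

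Agents also differed at 0.5 h. IL-1b and LPS together against TNF had Cdkn1a (0.45, adjusted p = 0.014), Ccng1 (0.42, adjusted p = 0.0088), Phlda3 (0.37, adjusted p = 0.029), Bax (0.29, adjusted p = 0.0080) and Sesn2 (0.24, adjusted p = 0.047) higher, 5 of 10 where 5.24% of all genes were, and none lower (5.13%). For Ccng1 all 4 IL-1b and LPS libraries (462 to 659 CPM) exceeded both TNF libraries (389.7 and 434 CPM). For Cdkn1a 3 of 4 pairs were higher, since crel-/- LPS (324 CPM) was level with crel-/- TNF (327 CPM). None of the 5 calls held when either TNF 0.5 h library was left out. Markers of other cells moved with this comparison. The macrophage sum was 2848 to 3521 CPM with IL-1b, 3179.7 to 3964 with LPS and 4573 to 5041 with TNF, beside 4375 to 5062 at 0 h. In the same comparison 9 of 15 macrophage markers were lower, as were 6 of 12 neural and Schwann markers, whose sum was 60.2 to 62.7, 61.8 to 66.3 and 88.7 to 115 CPM, beside 97.1 to 147 at 0 h. Their part in the difference between agents, and in the early rises under IL-1b and LPS, was not tested.

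Levels at 3 h were also compared with those at 0.5 h of the same agent. Under IL-1b, Cdkn1a (-0.43, adjusted p = 0.021), Mdm2 (-0.34, adjusted p = 0.044) and Plk2 (-1.14, adjusted p = 0.0060) were lower at 3 h, 3 of 10 against 9.92% of all genes, and none was higher (11.9%). Under LPS, Cdkn1a, Eda2r and Mdm2 (0.30, adjusted p = 0.036) were higher at 3 h than at 0.5 h, against 27% of all genes, and Gdf15 (-2.21, adjusted p = 0.0085) and Sesn2 lower (27%). Under TNF, Eda2r (0.39, adjusted p = 0.022) and Bax (0.23, adjusted p = 0.023) were higher (17.1%) and none lower (14.7%). Of these calls, those of Plk2 under IL-1b and of Cdkn1a, Eda2r and Sesn2 under LPS held without any 1 library, and the others were each lost without at least 1. The agents' time courses were not compared with each other by a test of their own. For Mdm2 under LPS the direction turns with library totals (-0.21).

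Averaged over the 10 conditions, some of the 10 genes were higher in the knock-in. Eda2r was higher in the knock-in in 10 of 10 pairs of libraries with the same agent and time, by 0.48, SE 0.05, adjusted p = 3.2e-05 on the log2 scale, and single pairs ran from 0.11 to 0.73. Sesn2 (0.19, adjusted p = 0.0031), Ccng1 (0.20, adjusted p = 0.0075) and Bax (0.12, adjusted p = 0.019) were higher in 10 of 10 pairs, and Mdm2 (0.22, adjusted p = 0.0087) in 9 of 10. That makes 5 of 10 higher where 7.99% of all genes were, and 0 lower (7.81%). The differences other than that of Eda2r were small, none above 1.16-fold. In the single pair at 0 h, Eda2r was higher by 0.53, Bax by 0.18 and Sesn2 by 0.15, but Ccng1 by 0.023 and Mdm2 by 0.0035 only. Single pairs ran from 0.023 to 0.47 for Ccng1 and from -0.11 to 0.45 for Mdm2. Cdkn1a was lower in 8 of 10 pairs, but its difference of -0.10 (adjusted p = 0.20) did not pass, nor did those of Plk2 (0.12, adjusted p = 0.46), Phlda3 (0.08, adjusted p = 0.34), Bbc3 (-0.06, adjusted p = 0.70) and Gdf15 (0.02, adjusted p = 0.98). The call of Bax was lost without the crel-/- IL-1b 0.5 h library (0.10, adjusted p = 0.052) or the crel-/- LPS 0.5 h library (0.10, adjusted p = 0.052). A model of genotype alone, which leaves the agents in the spread, called 0 of 10. The share of all genes under that model is not given here. Of 12 NF-kB target genes used as a reference, 10 were lower in the knock-in, with a median log2 difference of -2.47. Markers of other cells moved with genotype too. The summed cartilage markers were lower in the knock-in in 10 of 10 pairs (58.6 to 118 CPM, median 66.3, against 91.7 to 147 CPM, median 105), with 3 of 6 measured markers lower, and the summed skeletal muscle markers were higher in 10 of 10 (13.1 to 30.2 against 8.93 to 24.4 CPM). Macrophage markers were lower for 3 of 15, fibroblast markers higher for 4 and lower for 1 of 12, and neural and Schwann markers higher for 1 and lower for 3 of 12. The part of these in the difference was not tested. With 1 library per condition, genotype and the origin of the cells cannot be told apart.

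**Figure D4:**
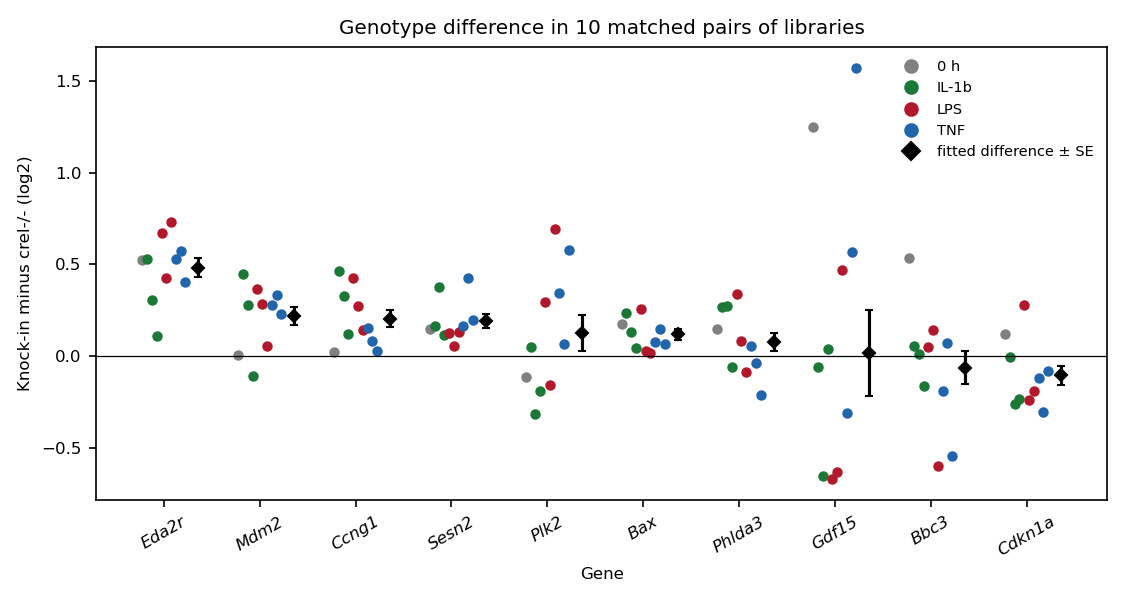
Knock-in minus crel-/- log2 CPM of the 10 genes, with 1 point for each of the 10 pairs of libraries sharing agent and time, and the fitted difference with its SE as a black diamond. Eda2r, Sesn2, Ccng1 and Bax lie above 0 in all 10 pairs and Mdm2 in 9, while the pairs of Cdkn1a, Plk2, Phlda3, Bbc3 and Gdf15 lie on both sides of 0.

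Whether the knock-in changed the response itself was tested with interaction terms. The genotype difference in the 9 stimulated pairs against that at 0 h passed for 0 of the 10 genes and for 0 of 14023 genes (edgeR's quasi-likelihood test). This test rests on 1 pair of libraries at 0 h, with SEs from 0.11 (Bax) to 1.09 (Gdf15) among the 10 genes. It can miss differences, and its outcome does not show that the responses were equal. At an unadjusted p under 0.05 there was 1 member, Bbc3 (-0.66, SE 0.26), and 450 genes in all, and DESeq2 called 6 genes and limma 0, none a member. Knock-in minus crel-/- on the log2 scale, Bbc3 differed by 0.54 at 0 h, by -0.60 after LPS for 3 h and -0.55 after TNF for 3 h, and by -0.19 to 0.14 in the other 7 pairs. The change of the genotype difference from 0.5 to 3 h passed for 0 of 10 genes and for 3.44% of all genes. Phlda3 (-0.34, adjusted p = 0.083) and Mdm2 (-0.30, adjusted p = 0.086) came nearest, 6 members and 2231 of 14023 genes had an unadjusted p under 0.05, and DESeq2 and limma called none of the 10. With no filter on low counts Phlda3 passed (-0.33, adjusted p = 0.035). The genotype difference under LPS against TNF passed for 0 of 10 (0.0214% of all genes, 3 genes), with 0 of the 10 and 887 of all genes at an unadjusted p under 0.05, and DESeq2 and limma called none of the 10.

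Trp53, named because it encodes p53 itself, was at 74.7 to 185 CPM over the libraries. Its RNA did not pass at 0.5 h (0.00, adjusted p = 1.00) or 1 h (0.13, adjusted p = 0.61) and rose at 3 h by 0.69, SE 0.15, adjusted p = 0.0025. In the list of 20 regulators of p53, to which it belongs, 2 rose at 0.5 h (2.9% of all genes did), 4 at 1 h (7.12%) and 10 at 3 h (25.5%), where 2 fell (24.5%), with medians of 0.10, 0.10 and 0.18. Mdm4, the partner of MDM2 that holds p53 inactive, was higher at each time, by 0.41 (adjusted p = 0.0024), 0.49 (adjusted p = 0.00030) and 0.58 (adjusted p = 1.0e-05). At 3 h Daxx (1.98, adjusted p = 9.0e-06), Cdkn2a (1.00, adjusted p = 1.6e-06), whose locus also encodes the MDM2 inhibitor ARF, and the p53 kinase Hipk2 (0.74, adjusted p = 5.3e-05) rose, while the checkpoint kinases Chek1 (-0.97, adjusted p = 0.00013) and Chek2 (-1.13, adjusted p = 0.00011) fell.

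Of 32 other p53 target genes, 7 rose and 0 fell at 0.5 h, where 2.9% and 2.53% of all genes did. At 1 h 8 rose and 1 fell (7.12% and 6.7% of all genes), and at 3 h 10 rose and 8 fell, shares near those of all genes (25.5% and 24.5%). The medians were 0.18, 0.13 and 0.07, beside 0.51, 0.62 and 0.73 for the 10. The largest early changes were those of Btg2, an antiproliferative gene that is also an immediate early gene (3.60, adjusted p = 0.0041 at 0.5 h), and Plk3, a relative of Plk2 (1.52, adjusted p = 0.039), followed by Pmaip1 (NOXA, 0.75, adjusted p = 0.044), Gadd45a (0.73, adjusted p = 0.012) and Trp53inp1 (0.38, adjusted p = 0.0057). At 3 h the death receptor gene Fas (2.80, adjusted p = 0.0060) and the autophagy regulator Dram1 (2.12, adjusted p = 0.0025) rose most, whereas the sestrin Sesn1 (-1.90, adjusted p = 0.00023) and the long noncoding RNA Trp53cor1 (-2.00, adjusted p = 0.00027) fell. In contrast to Eda2r, Fas (-1.39, adjusted p = 0.018) and Dram1 (-0.97, adjusted p = 0.015) were lower in the knock-in. Over the list, 7 of 32 were higher and 2 lower in the knock-in, where 7.99% and 7.81% of all genes were, with a median of 0.07.

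Of 27 immediate early genes, which respond to MAP kinase signalling within minutes, 23 rose at 0.5 h, 21 at 1 h and 18 at 3 h (1 fell), beside 2.9%, 7.12% and 25.5% of all genes higher, with medians of 2.86, 2.01 and 1.51. The largest at 0.5 h were Fosb (4.79, adjusted p = 0.0013) and Nr4a1 (4.48, adjusted p = 0.0082). Of 20 genes of ATF4 and the integrated stress response, which is also known to induce Sesn2 and Gdf15, 2 rose at 0.5 h, 3 at 1 h and 8 at 3 h, where 4 fell, beside the same shares of all genes and 24.5% lower at 3 h. Ddit4, a further mTORC1 inhibitor, was among those that fell (-0.95, adjusted p = 0.0029). Among 25 cell cycle genes known to be lowered when p21 is high, 1 fell at 0.5 h, 3 at 1 h and 19 at 3 h, and none rose, where 2.53%, 6.7% and 24.5% of all genes fell. Their median at 3 h was -0.65, with Tk1 (-1.33, adjusted p = 0.0018) and Rrm2 (-0.97, adjusted p = 0.0014), both enzymes of nucleotide supply, the lowest. With library totals, the median of all genes at 3 h was 0.31 lower than with TMM, so the counts of these lists at 3 h hold relative to the TMM scale.

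The genes whose log2 CPM ran most like a member's over the 20 libraries differed from member to member. They are given with Pearson's r as a description, and the libraries share agents, times and 2 baselines. For Gdf15 they were Fos (0.79), Ier2 (0.78) and Egr2 (0.76), and for Plk2 Btg2 (0.87), Jun (0.86) and Plk3 (0.83), all 6 of which are early response genes. The nearest to Mdm2 were Dusp5 (0.83), Rabgef1 (0.82) and Dusp4 (0.78). Cdkn1a ran with Ccnl1 (0.91), Tmem134 (0.90) and Prnp (0.90), and Eda2r with Ece1 (0.95), Cast (0.94) and Plat (0.93). For Ccng1 the list was Cdh13 (0.91), Dysf (0.91) and Ak1 (0.90), for Phlda3 Ccdc3 (0.89), Cyb5r3 (0.87) and Uqcrq (0.87) and for Bax Flna (0.92), Myh9 (0.91) and Plxna2 (0.91). Bbc3 was nearest to 1810022K09Rik (0.88), Crebzf (0.86) and Mdm4 (0.85), the last of them the partner of MDM2, and Sesn2 to Wrap73 (0.94), Rin1 (0.89) and Pias4 (0.89). None of these 30 places was taken by another of the 10 genes. Among the 45 pairs of members r ran from -0.32 for Eda2r and Sesn2 to 0.80 for Phlda3 and Bbc3.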

How the data were processed

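The 20 RNA libraries were grouped by the genotype, agent and time in their labels, 1 library per group. Per the labels' protocols, a stranded polyA kit was used on 1 ug of RNA with 12 PCR cycles, and single-end reads of 50 nt were sequenced. Raw, non-normalized counts per gene were deposited by the authors, and the submitters' processing notes name, without saying how each was used, mm10, cutadapt 1.12, STAR, DESeq2 and featureCounts 1.5.1. How multiply matching reads were treated, the strand option and the gene annotation's release were not given in the sources used here. No other gene of the table shares exon bases with the 10 genes. The members and all gene lists were chosen with earlier results of these data known.

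Of 45706 genes, 45143 (98.8%) matched a symbol. The test covered the 14023 genes that reached 1 CPM in 2 or more libraries, and used edgeR 4.0.16 with its quasi-likelihood F test (TMM, robust fit, R 4.3.3), with Benjamini-Hochberg adjustment over all of them and a threshold of 0.05. Responses, differences between agents and the genotype difference came from a model of genotype plus condition (9 residual degrees of freedom), and the interactions from models with genotype by stimulation (8), by time or by agent (6 each). The SE was derived from the fold change and the F statistic, and the common biological coefficient of variation was 10.6%. On simulated counts for 14023 genes, LPS 3 h against 0 h recovered 40% of genes changed by 0.5 (log2) and 97% of those changed by 1, TNF 0.5 h against 0 h 33% and 100%, and the genotype comparison 100% of both. The changed genes were drawn from well-counted genes only, with the same spread for every gene and without the scaling shift of LPS at 3 h. These shares therefore do not cover genes with few counts, such as Gdf15, or genes with a wider spread. In each simulation 100 genes of each size were changed, whereas the data at LPS 3 h had 4099 genes higher and 3962 lower. The adjusted threshold thus falls elsewhere in the data, and the recovery shares need not hold for LPS at 3 h. Alternatives were DESeq2 1.42.0, limma-voom 3.58.1, RLE scaling, library totals, 2 other count filters, other models and leaving out libraries. From lists other than the 10 genes, up to 5 called genes with the largest change per time are named, and Trp53 because it encodes p53. The 3 genes with the highest Pearson correlation to a member, among genes with a mean of at least 5 CPM, are named.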

Additional observations from a re-analysis of the deposited data

Results flagged for a closer look

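Differences between agents that passed a test of their own (edgeR's quasi-likelihood test with Benjamini-Hochberg adjustment) are listed for a closer look, as log2 differences. At 3 h, LPS minus TNF was 1.14 for Cdkn1a and 1.20 for Eda2r, and smaller for Ccng1 (0.27) and Bax (0.24). Plk2 (-0.81) and Sesn2 (-0.84) were lower under LPS. LPS minus IL-1b at 3 h was 0.93 for Cdkn1a, 1.16 for Eda2r, 0.48 for Mdm2, 0.19 for Bax and -0.89 for Sesn2. IL-1b minus TNF at 3 h was -0.97 for Plk2. At 0.5 h, the mean of IL-1b and LPS minus TNF was 0.45 for Cdkn1a, 0.42 for Ccng1, 0.37 for Phlda3, 0.29 for Bax and 0.24 for Sesn2. Differences of Cdkn1a, Eda2r and Sesn2 at 3 h involving LPS were called without any 1 of the 20 libraries. The signs of Ccng1 and Bax between LPS and TNF, and of Bax between LPS and IL-1b, turned with library totals.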

How the results depend on the processing

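Knock-in and crel-/- libraries were matched on agent and time, and the labels give no replicate numbers for a further block. Of 112 calls of the 10 genes over 23 comparisons, 46 held in each of the 20 fits that leave out 1 library, in which a lone sample is assumed to vary like the other groups. In those fits the number higher than at 0 h was 1 to 8 at 0.5 h, 2 to 8 at 1 h and 6 to 7 at 3 h, with 5 to 10, 2 to 8 and 5 to 7 for IL-1b, 1 to 6, 4 to 9 and 6 to 7 for LPS and 0 to 2, 1 to 3 and 3 to 8 for TNF. From 0.5 to 3 h, 1 to 4 were lower with IL-1b, 2 to 5 higher and 1 to 3 lower with LPS, and 0 to 2 higher and 0 to 1 lower with TNF. LPS against TNF gave 2 to 6 higher and 1 to 3 lower, IL-1b against TNF 0 to 2 and 0 to 2, LPS against IL-1b 2 to 4 higher, and IL-1b and LPS against TNF at 0.5 h 0 to 5. The knock-in gave 4 to 5 higher and 0 to 1 lower, and its change from 0.5 to 3 h 0 to 1 lower. With TNF at 0.5 h, DESeq2 called 4 (140 of 14023 genes) and no count filter 0 (27 of 26128 genes). With library totals 2 were lower at 3 h, where 7360 of 14023 genes were. After LPS for 3 h 3 were higher and 2 lower than at 0 h on that scale (1706 and 9110 of all genes). From 0.5 to 3 h on that scale 5 were lower with IL-1b, 6 lower with LPS and 0 higher with TNF. Of 14023 genes, 2254 were lower with IL-1b, 8524 lower with LPS and 1540 higher with TNF. LPS at 3 h had 2 higher and 5 lower against TNF as well as against IL-1b. Of all genes, 1585 were then higher and 7862 lower against TNF, and 1491 higher and 7738 lower against IL-1b. Library totals turned Ccng1 (-0.21) and Sesn2 (-0.23) at 3 h, Ccng1 (-0.42) and Bax (-0.073) at LPS 3 h, Mdm2 (-0.21), Phlda3 (-0.30) and Bax (-0.34) from 0.5 to 3 h of LPS, Ccng1 (-0.19), Phlda3 (-0.28) and Bax (-0.22) against TNF, and Ccng1 (-0.44) and Bax (-0.26) against IL-1b. No count filter gave 1 higher from 0.5 to 3 h of TNF and 1 lower for the change of the genotype difference. A filter of 5 CPM, which Gdf15 did not pass, gave 1 lower from 0.5 to 3 h of LPS. A model of genotype and time gave 0 at 0.5 h and 0 at 1 h, the 0 h and TNF libraries alone 0 and 2, and genotype without matching 0 higher. The shares of all genes under these models are not given here. Apart from library totals, whose construction moves the median of all genes, and the filter of 5 CPM, which drops Gdf15, the cause was not tested. Depth limits Gdf15 most, with 4 to 57 counts per library.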

Other observations

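Beyond the p53 targets, the BCL-2 family, which sets the balance in which BAX and PUMA act, was called in both directions, at 3 h in shares near those of all genes. Of 17 family genes outside the 10, 13 were measured, and averaged over agents 2 rose at 0.5 h, 2 rose and 1 fell at 1 h, and 4 rose and 3 fell at 3 h (edgeR's quasi-likelihood test, Benjamini-Hochberg adjusted p under 0.05). Of all genes, 2.9%, 7.12% and 25.5% rose and 2.53%, 6.7% and 24.5% fell at the 3 times. The survival gene Mcl1 was higher at 0.5 h (0.65 on the log2 scale, adjusted p = 0.0024), 1 h (0.72, adjusted p = 0.00047) and 3 h (0.46, adjusted p = 0.0014). At 3 h Bcl2a1d, a further survival gene, rose by 2.75 (adjusted p = 0.013) and the BH3-only gene Bid by 1.62 (adjusted p = 0.0026). The BH3-only gene Bmf fell by 2.37 (adjusted p = 0.00020), whereas Bbc3 rose by 0.83. Bcl2a1d is 1 of several near-identical copies, so its counts are uncertain.

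Other inhibitors of cyclin-dependent kinases, G1 cyclins and their kinases were also called in both directions. Of these 15 genes, 1 rose and 1 fell at 0.5 h, 2 rose and 3 fell at 1 h, and 5 rose and 7 fell at 3 h, beside the same shares of all genes. Cdkn2b (p15) rose by 1.20 at 3 h (adjusted p = 0.0049) and the kinase Cdk6 by 1.37 (adjusted p = 1.4e-05). Cyclin E2 (Ccne2) fell by 0.84 (adjusted p = 0.0077) and Ccng2, a relative of Ccng1, by 0.63 (adjusted p = 0.017).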
